A study of Mus musculus with 13 samples.

Results

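The microRNA miR-129 was followed across 13 primary abdominal neuroblastomas of mice, through the 3 forms of it that the arrays read: mmu-miR-129-5p, mmu-miR-129-1-3p and mmu-miR-129-2-3p, written below without the species prefix. They were taken by name from the 1079 mouse miRNAs of the array, and they were chosen by their measured difference between the groups, since earlier results of these same data had shown lower means of all 3 in caspase-8-deficient tumours. That difference is therefore given as a description with no test. Neuroblastoma is a tumour of the sympathetic nervous system. The series title places the tumours in TH-MYCN mice, in which the tyrosine hydroxylase promoter drives MYCN in sympathetic precursors, and both groups share this transgene as far as the title says. Of the 13 mice, 6 had wild-type caspase-8 and no spread to the bone marrow, and 7 were deficient in caspase-8 and had such spread, so that genotype and metastasis cannot be told apart. The sources used here give neither the way in which caspase-8 was removed nor the ages of the mice. Caspase-8 is a protease that starts apoptosis when death receptors are engaged. Total RNA of each tumour, described as a biological replicate, was hybridised to 1 Agilent array of 1 colour.

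miR-129 is a miRNA of neurons. A miRNA is cut from a hairpin, which can give a mature strand from its 5p arm and another from its 3p arm, and the seed, bases 2 to 8 of the strand, sets most of its pairing with target transcripts. miR-129-5p is known to repress the potassium channel transcript Kcna1 and the transcripts of Cdk6 and Sox4, and the MIR129-2 promoter is often methylated in human cancers.

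The sequences show which strand can be assigned to which locus. In RefSeq (GRCm38.p6), matched by name, 2 of the 3 forms had a mature entry, printed here 5′ to 3′ with the seed in capitals.
mmu-miR-129-5p: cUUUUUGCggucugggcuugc
mmu-miR-129-2-3p: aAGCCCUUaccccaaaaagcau
The 2 seeds were identical at 0 of 7 positions, and neither was found in a mature strand of another name among the 1679 mouse names in the table. miR-129-5p was annotated at chr6:29022624-29022644 on the plus strand, in the gene Mir129-1, and at chr2:94241419-94241439 on the minus strand, in Mir129-2. Its signal thus has no locus of its own. miR-129-2-3p lay at chr2:94241376-94241397 on the minus strand. The precursors are printed with every run of at least 12 bases that they share in capitals.
Mir129-1 hairpin: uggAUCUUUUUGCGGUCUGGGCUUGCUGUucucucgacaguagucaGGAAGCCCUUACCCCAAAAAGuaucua
Mir129-2 hairpin: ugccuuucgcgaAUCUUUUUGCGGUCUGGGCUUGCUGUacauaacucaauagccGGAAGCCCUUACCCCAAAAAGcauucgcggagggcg
The hairpins, at chr6:29022619-29022691 on the plus strand and chr2:94241364-94241453 on the minus strand, shared 2 such runs, of 26 bases over the 5p arm and of 21 bases over the 3p arm, while their loops and ends differed. The Mir129-1 hairpin held the first 19 of the 22 bases of miR-129-2-3p, and the whole stretch differed from it at 1 position, C20U, counted from the 5′ end of miR-129-2-3p with its base first. Probes for the 3p forms therefore face nearly the same sequence, and how much of either signal came from the other form was not tested. In the gene table Mir129-2 overlapped the long noncoding RNA gene Mir670hg and the miRNA gene Mir129b on the opposite strand, and Mir129-1 overlapped no other gene. The nearest protein-coding genes were Ttc17 and Lep.

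Each form was read by 2 probes of 20 spots. Levels are log2 values of the signal summed over the probes, after division by each array's 75th percentile, with a floor at 4.1. miR-129-1-3p and miR-129-2-3p were detected by the scanner software in all 13 tumours and miR-129-5p in 12, so that all 3 forms passed the filter of detection on at least 6 arrays. Because probes differ in brightness, levels are compared between tumours and never between forms.

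miR-129-2-3p, the strand of the chromosome 2 locus, varied most. In wild-type tumours its lowest, median and highest levels were 6.13, 8.52 and 11.07 (n = 6). In deficient tumours they were 5.07, 6.53 and 8.49 (n = 7). The groups overlapped: 3 wild-type tumours, replicates 1, 3 and 6, lay above every deficient tumour, 2 deficient tumours, replicates 1 and 3, lay below every wild-type tumour, and 0 of 7 deficient tumours reached the wild-type median. Wild-type replicate 3 stood at 11.07 and wild-type replicate 6 at 9.78, ahead of wild-type replicate 1 at 8.69 and deficient replicate 4 at 8.49. On the linear scale, scaled signals ran from 33.5 in deficient replicate 3 to 2145 in wild-type replicate 3. Only 3 of 40 spots were well above background in deficient replicate 3, so that no fold is given against it. The means were 8.47 ± 1.83 (SD, n = 6) and 6.73 ± 1.22 (SD, n = 7), a difference (deficient minus wild type) of −1.74 (SE 0.76), or 3.34-fold lower in deficient tumours. Slide 1 alone gave −1.93 and slide 2 alone −1.37, and a fit with slide as a term gave −1.66. With normexp background correction in place of the scanner software's own, an offset of 50 per probe and no floor, it was −1.08. An added offset draws low signals together on the log2 scale, and its part in this value was not tested.

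miR-129-5p, the strand with the best known targets, had its lowest, median and highest levels at 5.16, 6.89 and 7.97 in wild-type tumours. In deficient tumours they were 4.10, 5.67 and 6.67. Here 4 wild-type tumours, replicates 1, 2, 3 and 6, lay above every deficient tumour, while wild-type replicates 4 and 5, at 5.68 and 5.16, lay inside the deficient range. Deficient replicate 3 was not detected, with 0 of 40 spots well above background, and is held at the floor, so that the range over the tumours was at least 14.7-fold. In deficient replicate 1 and wild-type replicate 5 only 1 and 4 of 40 spots were well above background. The means were 6.63 ± 1.03 (SD, n = 6) and 5.50 ± 1.00 (SD, n = 7), a difference of −1.13 (SE 0.52), or 2.18-fold, and −0.89 without deficient replicate 3. Slide 1 alone gave −1.43, slide 2 alone −1.05 and the fit with a slide term −1.24. With 4 times the floor the difference was −0.61, and with the same normexp setting and its offset −0.42.

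miR-129-1-3p, named for the chromosome 6 locus, varied least. Its lowest, median and highest levels were 6.66, 8.02 and 8.56 in wild-type tumours. In deficient tumours they were 5.77, 6.94 and 8.09. Deficient replicate 4 lay above the wild-type median, 3 wild-type tumours, replicates 2, 3 and 6, lay above every deficient tumour, and the range over all tumours was 6.92-fold. The means were 7.70 ± 0.79 (SD, n = 6) and 6.91 ± 0.80 (SD, n = 7), a difference of −0.79 (SE 0.41), or 1.73-fold. Of all 3 forms this one had the group difference that varied most between the slides, with −1.21 on slide 1 alone and −0.39 on slide 2 alone. A slide term gave −0.81 and the normexp setting with its offset −0.43.

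**Figure D1:**
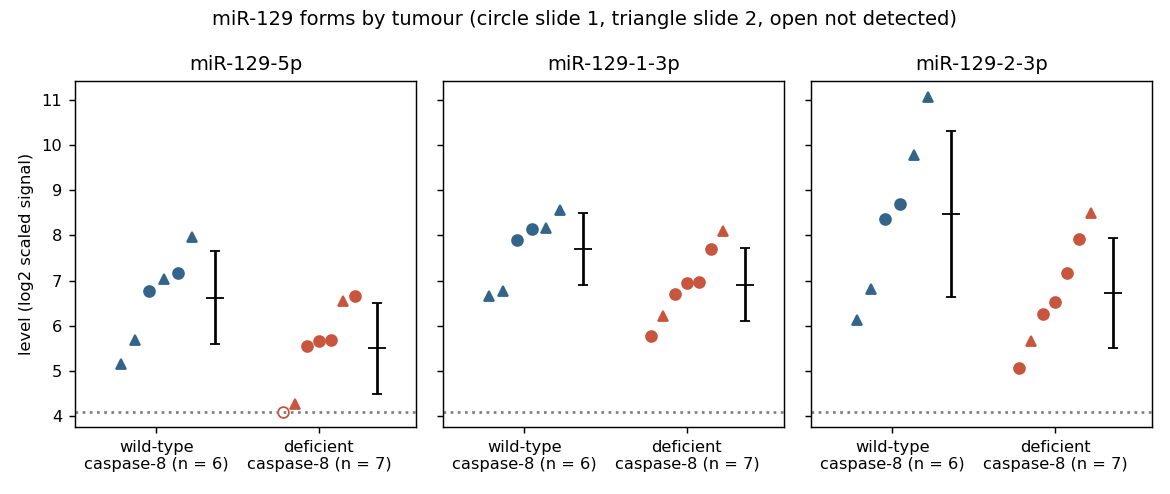
Level of each miR-129 form (log2 scaled signal) in 6 wild-type and 7 caspase-8-deficient tumours, 1 point per tumour (circles slide 1, triangles slide 2, open where not detected), with the group mean ± SD beside the points and the floor of 4.1 as a dotted line. The groups overlap in all 3 forms, and miR-129-2-3p spans the widest range, from 5.07 to 11.07.

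In the comparison of deficient with wild-type tumours over all 419 miRNAs detected on at least 6 arrays, 0 passed an adjusted p under 0.05 by limma (0% of those tested, smallest adjusted p = 0.448), and 16 had an unadjusted p under 0.05 (3.82%). The groups did not overlap for 1 of the 419 miRNAs (0.239%), which was no form of miR-129. Of the 419 differences, that of miR-129-2-3p was the lowest, that of miR-129-5p ranked 13 from the lowest and that of miR-129-1-3p ranked 41. The forms were chosen by this same difference, so that these ranks only describe it. They also take no account of the standard error. The median difference over all 419 was 0.0413, and 192 of them (45.8%) had a lower mean in deficient tumours. In bulk tumour RNA, fewer cells that hold miR-129 and less miR-129 per cell cannot be told apart.

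The spread among tumours was wide beside that of other miRNAs. Over all 13 tumours the SD was 1.72 for miR-129-2-3p, 1.13 for miR-129-5p and 0.87 for miR-129-1-3p, against a median SD of 0.533 over the 419 miRNAs. In order of SD these were ranks 7, 45 and 103. These SDs and ranks hold the group difference by which the forms were chosen, and ranks within a group were not computed. Within wild-type and deficient tumours the SDs were 1.83 and 1.22 for miR-129-2-3p, 1.03 and 1.00 for miR-129-5p, and 0.79 and 0.80 for miR-129-1-3p. Repeated spots on 1 array gave far smaller errors, with a standard error of the log2 level from 0.010 to 0.060 for miR-129-2-3p, from 0.0086 to 0.036 for miR-129-1-3p and from 0.015 to 0.13 for miR-129-5p. When the tumours were placed in order of level, all 12 gaps between neighbours were larger than 1.96 times their combined spot error for miR-129-2-3p, and 8 of 12 were for each of the other forms. The neighbours that could not be ordered in miR-129-5p were wild-type replicate 4 with deficient replicates 6, 7 and 5 in turn, from 5.68 down to 5.55, and deficient replicates 1 and 3 at the low end. In miR-129-1-3p they were wild-type replicates 6 and 2, deficient replicates 6 and 5, and the run of wild-type replicate 5, deficient replicate 7 and wild-type replicate 4. Spots share an RNA extract and a hybridisation, so that these errors leave out variation in preparing a tumour.

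The 3 forms placed the tumours in much the same order. The 6 highest tumours were the same for every form, wild-type replicates 1, 2, 3 and 6 and deficient replicates 2 and 4. Wild-type replicate 3 was first in each, and deficient replicates 1 and 3 were twelfth and last. Across all 13 tumours, miR-129-5p followed miR-129-2-3p with Pearson r = 0.951 and Spearman rho = 0.94. miR-129-5p followed miR-129-1-3p with r = 0.97 and rho = 0.907. The 3p forms followed each other with r = 0.937 and rho = 0.896. The 2 tumours farthest from the median were then left out, by miR-129-5p in the first 2 pairs and by miR-129-1-3p in the last. With the other 11 tumours r was 0.92, 0.95 and 0.949.

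Those values hold the group difference by which the forms were chosen and are given with no test, whereas values within a group leave that difference out. Within the 6 wild-type tumours r was 0.952 for miR-129-5p with miR-129-2-3p, 0.968 for miR-129-5p with miR-129-1-3p and 0.931 between the 3p forms (exact two-sided permutation p of 0.00833, 0.00556 and 0.00972, each with adjusted p = 0.00972 over the 3 pairs). The rho values there were 0.829, 0.886 and 0.886, with exact permutation p of 0.0583, 0.0333 and 0.0333 and adjusted p of 0.0583, 0.05 and 0.05. Within the 7 deficient tumours r was 0.946, 0.956 and 0.949 (exact permutation p of 0.00476, 0.00595 and 0.00238, each with adjusted p = 0.00595), and rho was 0.929, 0.929 and 0.893 (exact permutation p of 0.00675, 0.00675 and 0.0123, adjusted p of 0.0101, 0.0101 and 0.0123). The 2 tumours farthest from the group median, by the same form of each pair, were also left out. Then r was 0.817, 0.98 and 0.87 over 4 wild-type tumours, and 0.911, 0.926 and 0.842 over 5 deficient tumours. Within slide 1 r was 0.96, 0.99 and 0.941, and within slide 2 it was 0.981, 0.959 and 0.962. The forms of a tumour share an array and its scaling, and the 3p forms share nearly all of their sequence. The part of these in the correlations was not tested. As a description of the arrays, r with the 75th percentile used for scaling was −0.207 for miR-129-5p, −0.0896 for miR-129-1-3p and 0.00909 for miR-129-2-3p. With the number of detected miRNAs, from 338 to 469, r was −0.235, −0.14 and −0.113, and with the summed signal −0.483, −0.412 and −0.376.

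**Figure D2:**
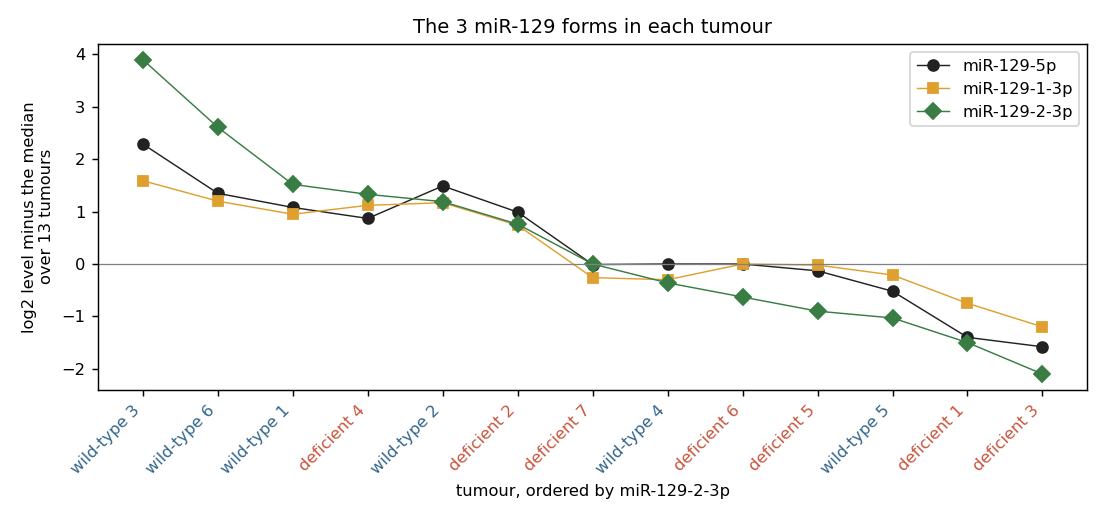
Log2 level of each form minus its own median over the 13 tumours, with tumours ordered by miR-129-2-3p (blue names wild type, red names deficient). The lines follow each other, and miR-129-2-3p spreads farthest at both ends, to 3.9 above its median in wild-type replicate 3.

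The signals of the forms varied by unequal amounts. The brighter and dimmer probes gave group differences of −1.76 and −0.99 for miR-129-2-3p, −0.96 and −0.79 for miR-129-5p and −0.78 and −0.42 for miR-129-1-3p. Low values of the dimmer probes were held at the floor in 7, 6 and 5 tumours, so that these differences cannot compare the response of the probes. How much of the unequal variation came from the miRNAs and how much from their probes was not tested. On the log2 scale, the fitted slope of miR-129-2-3p on miR-129-5p was 1.44, its slope on miR-129-1-3p was 1.86, and that of miR-129-5p on miR-129-1-3p was 1.27. The log2 ratio of miR-129-2-3p over miR-129-1-3p, centred on its median, had its lowest, median and highest values at −0.842, 0.284 and 2.29 in wild-type tumours. In deficient tumours they were −0.915, −0.646 and 0.248. The ratio was highest in wild-type replicates 3 and 6, at 2.29 and 1.39. Its lowest value came from deficient replicate 3, where only 3 of 40 spots of miR-129-2-3p were well above background, so that its range is not given as a fold. The ratio of miR-129-2-3p over miR-129-5p ranged 5.18-fold, with its lowest value in deficient replicate 5. It was again highest in wild-type replicates 3 and 6, at 1.84 and 1.50. The ratio of miR-129-5p over miR-129-1-3p ranged only 2.56-fold, which includes a tumour with miR-129-5p at the floor.

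The 2 probes of a form differed in brightness and ordered the tumours similarly but not identically. For miR-129-2-3p the brighter probe, A_54_P1338, gave a median of 88.9% of the summed signal. Its scaled signal had a median of 135 and ran from 28.4 to 1969, while the dimmer probe, A_54_P1337, ran from 5.09 to 177 with a median of 16.7. The Spearman correlation between the probes across tumours was 0.929 for this form, 0.962 for miR-129-5p and 0.879 for miR-129-1-3p, given as a description. The dimmer probes had at least 50% of their spots well above background in only 4, 4 and 3 of the 13 tumours, so that the order of the other tumours by these probes rests on signals near background. In miR-129-1-3p, deficient replicate 7 was the lowest tumour by the dimmer probe but lay above 4 tumours by the brighter one. With the brighter probe alone the differences were −1.76 for miR-129-2-3p, −0.96 for miR-129-5p and −0.78 for miR-129-1-3p. The dimmer probes were at the floor in 7, 6 and 5 tumours, and gave −0.99, −0.79 and −0.42. Of all 260 spots per probe, 243 of A_54_P1338 and 80 of A_54_P1337 were well above background, as were 196 and 83 for the probes of miR-129-5p and 260 and 69 for those of miR-129-1-3p.

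**Figure D3:**
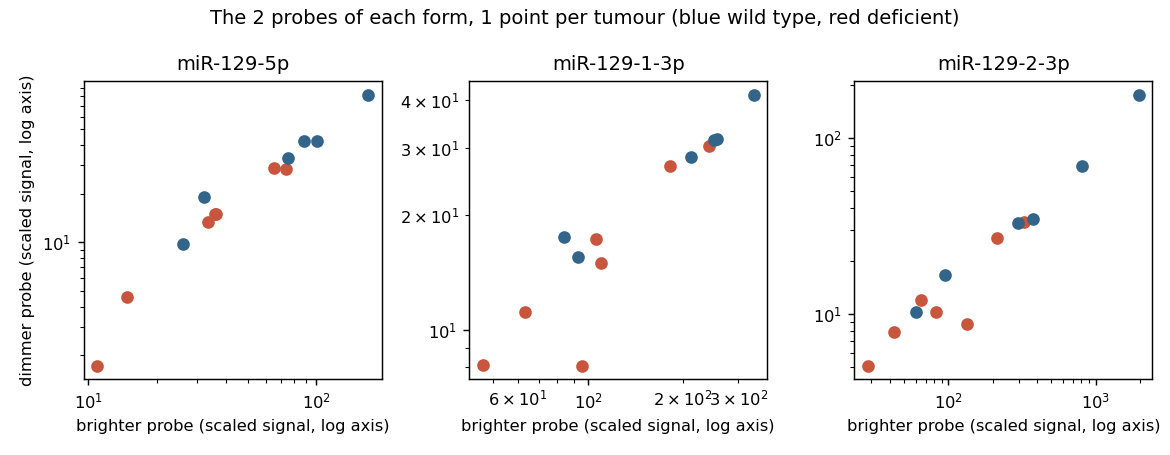
Scaled signal of the dimmer probe against that of the brighter probe of each form, 1 point per tumour, on log axes (blue wild type, red deficient). Signals are drawn before the floor is applied. The Spearman correlations are 0.962, 0.879 and 0.929 from left to right, and the dimmer probes lie under the floor value of 17.2 in 6, 5 and 7 of the 13 tumours.

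Other miRNAs were ranked by how closely they followed each form over the 13 tumours, among the 292 others detected on all arrays. These correlations describe a shared pattern over common arrays, hold the group difference by which the forms were chosen, and carry no test. miR-129-2-3p was followed most closely by miR-153-3p, a miRNA of neurons (r = 0.897), then by miR-7b-5p, which is abundant in neuroendocrine cells (0.86), miR-34b-5p and miR-34c-5p, which are made from 1 transcript that p53 can induce (both 0.853), and miR-376b-5p of the imprinted Dlk1-Dio3 cluster (0.83). miR-153-3p was also among the closest 3 for miR-129-5p (0.798) and for miR-129-1-3p (0.786). The closest to miR-129-5p was miR-598-3p, another neuron-enriched miRNA (0.798), and the others were miR-325-3p (0.792), miR-136-5p of the Dlk1-Dio3 cluster (0.79) and miR-7b-5p (0.787). The closest to miR-129-1-3p was miR-325-3p (0.839), with miR-7b-5p (0.801), miR-34b-5p (0.784) and miR-331-3p (0.78) among the first 5. Within the groups, r of miR-129-2-3p with miR-153-3p was 0.948 in wild-type and 0.646 in deficient tumours. With miR-7b-5p it was 0.909 and 0.766, with miR-34b-5p 0.919 and 0.559, with miR-34c-5p 0.918 and 0.62, and with miR-376b-5p 0.864 and 0.773. In deficient tumours miR-153-3p lay near the floor, with a median of 4.29, so that its correlations rest partly on values near background.

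At the other end stood miR-126-3p, the miRNA of endothelial cells, with r = −0.754 for miR-129-5p and −0.695 for miR-129-1-3p. miR-10a-5p, from a Hox gene cluster, had r = −0.747 and −0.712 with the same forms. The third for miR-129-5p was miR-15a-5p (−0.69), and for miR-129-1-3p it was miR-3058-3p (−0.65). For miR-129-2-3p the most opposite were miR-3058-3p (−0.832), miR-2861 (−0.785) and miR-760-3p (−0.733). Within wild-type tumours r was −0.933, −0.801 and −0.809 for these, and within deficient tumours it was weaker, at −0.525, −0.635 and −0.457. miR-3058-3p was itself low, with levels from 4.90 to 7.01.

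Neuron-enriched miRNAs other than miR-129 made up a list of 25 on the array, of which 12 were tested and 10 were detected in no tumour. Detected in all 13 tumours were 11 of the list. Among them was miR-124-3p, which marks differentiated neurons, with levels between 8.32 and 10.18. In the comparison of the groups 0 of the 12 passed in either direction by limma, as did 0% of all miRNAs tested. Lower means in deficient tumours were found for 8 and higher means for 4, with a median difference of −0.23 beside the 0.0413 of all tested. miR-153-3p had its lowest, median and highest levels at 4.65, 5.34 and 7.50 in wild-type and 4.10, 4.29 and 5.17 in deficient tumours, a difference of −1.15 (SE 0.41). miR-598-3p was at 7.64, 7.98 and 9.20 against 7.11, 7.42 and 7.57, a difference of −0.74 (SE 0.24), and was the 1 miRNA of the table whose groups came apart. The other large differences were −0.92 (SE 0.49) for miR-132-3p, which neuronal activity induces, −0.85 (SE 0.50) for miR-138-5p and 0.55 (SE 0.36) for miR-9-5p, a miRNA of neural progenitors. The limma adjusted p was 0.589 for each of these except miR-9-5p, where it was 0.629.

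With the forms of miR-129 the members of this list did not vary as a unit. Among the 11 of them detected on all arrays, 8 had a positive correlation with each form, with a median r of 0.521 for miR-129-5p, 0.62 for miR-129-1-3p and 0.564 for miR-129-2-3p, beside medians of −0.0774, −0.0543 and −0.0926 over all 292. The range for miR-129-2-3p was from −0.415 (miR-9-5p) to 0.897 (miR-153-3p). miR-9-5p was also the lowest of the list for the other forms, at −0.303 and −0.203.

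**Figure D4:**
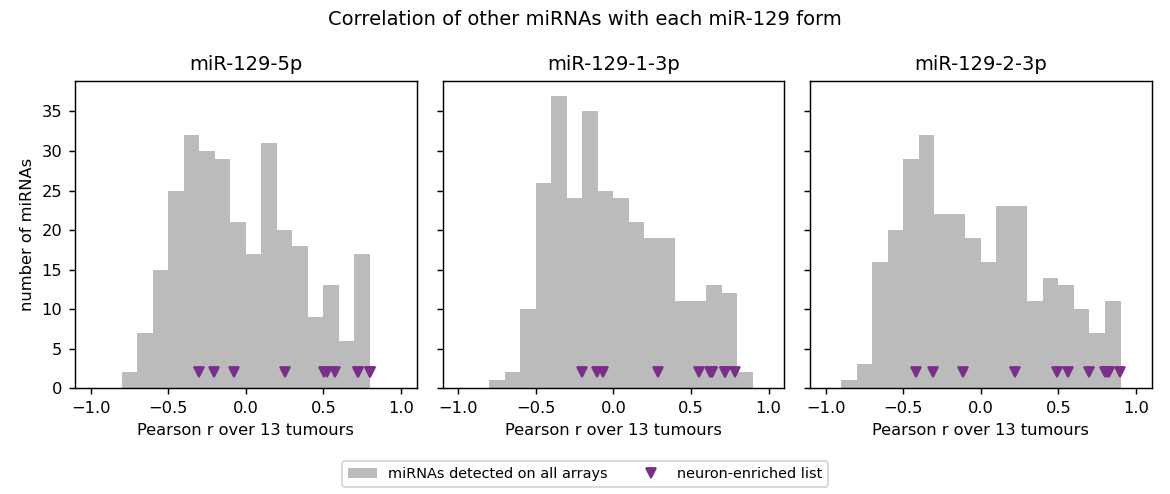
Pearson correlation over 13 tumours of each of 292 miRNAs with each miR-129 form (grey bars, number of miRNAs), with the 11 neuron-enriched miRNAs as triangles on the horizontal axis. Most of these lie to the right, and 3 of them lie below 0 in each panel.

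Marker lists of other cells, and of sympathetic and neuroendocrine cells, varied with miR-129 to unequal degrees. Their part in its differences was not tested. Sums were taken on the linear scale, so that the brightest member weighs most. The summed level of the 4 tested vessel miRNAs, all 4 with a higher mean in deficient tumours, ran from 10.75 to 11.63 in wild-type and from 10.40 to 12.26 in deficient tumours. It had r = −0.737 for miR-129-5p, −0.672 for miR-129-1-3p and −0.645 for miR-129-2-3p. The named members miR-126-3p and miR-143-3p differed by 0.51 (SE 0.30) and 0.28 (SE 0.30). In wild-type tumours their means were 11.02 and 7.96, so that the sum mostly repeats miR-126-3p. With the forms in the same order, miR-126-3p alone had r of −0.754, −0.695 and −0.675, and miR-143-3p only −0.327, −0.259 and −0.194. The 5 tested leukocyte miRNAs summed to 11.22 to 12.77 and 11.09 to 12.36, with r of −0.609, −0.569 and −0.575, and miR-342-3p and miR-142-3p differed by −0.06 (SE 0.20) and 0.07 (SE 0.53). The 3 erythroid miRNAs, all with a higher mean in deficient tumours, summed to 12.29 to 16.08 and 14.29 to 16.35, with r of −0.512, −0.437 and −0.413. This sum repeats miR-451, which alone had r of −0.511, −0.437 and −0.41. miR-451 and miR-144-3p differed by 0.95 (SE 0.50) and 0.72 (SE 0.44). The 6 tested stroma miRNAs summed to 10.90 to 12 and 10.70 to 11.95, with r of −0.508, −0.429 and −0.373, and miR-22-3p and miR-199a-3p differed by 0.05 (SE 0.28) and 0.12 (SE 0.26). The 4 tested skeletal muscle miRNAs spread most, from 7.35 to 11.81 and from 6.50 to 13.13, yet had r of only 0.0537, 0.129 and 0.148 with the forms. miR-133b-3p and miR-1a-3p differed by −0.08 (SE 1.18) and 0.04 (SE 1.46), and miR-1a-1-5p, miR-1a-2-5p and miR-206-5p were detected in no tumour. The 3 tested miRNAs of adrenal gland, kidney and liver summed to 7.47 to 7.94 and 7.31 to 8.10, with r of 0.421, 0.457 and 0.385. miR-202-3p and miR-192-5p differed by 0.05 (SE 0.18) and 0.09 (SE 0.21). The 6 sympathetic and neuroendocrine miRNAs, 5 of them with a lower mean in deficient tumours, summed to 12.16 to 13.22 and 11.58 to 12.98, with r of 0.637, 0.625 and 0.608. Among these the difference was −0.50 (SE 0.25) for miR-7a-5p, and it was −0.14 (SE 0.33) for miR-375-3p. No member of these 7 lists passed the threshold by limma.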

How the data were processed

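The members, the lists of other miRNAs and the tests were chosen with earlier results of these data known. The authors' scanner files gave a linear intensity for every spot, from which Feature Extraction (version 10.7.3.1, per the file headers) had already taken background and a spatial trend. The submitters' processing notes name version 10.5.1.1. The software's yes or no marks for detection and for outliers, a unit called other here, were used as deposited, per the file headers. The authors' value table was on a log2 scale, as its values show, with columns of equal distribution (median 3.82). Its background step and probe summary are unknown, and it served as an alternative. No spot was saturated.

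Of 47604 spots per array, 2164 controls and spots marked as outliers were left out. Spots were averaged per probe and summed per miRNA. Each array was scaled to its 75th percentile, taken from 294 miRNAs that were detected on every array, values under 17.2 were set to it (4.1 in log2, percentile 1 of what was detected), and log2 was taken. Differences and standard errors came from limma 3.58.1 (R 4.3.3, lmFit and eBayes, two-sided, Benjamini-Hochberg over the 419 miRNAs detected on at least 6 arrays), which was tested on simulated data. Correlations between forms were tested within each group by exact permutation of pairings. Precision is limited by how many arrays there are: 95% intervals of a difference had a median half-width of 0.626 in log2. By the array headers, the wild-type tumours fell 2 on slide 1 and 4 on slide 2, and the deficient tumours 5 and 2.

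Named beside the 3 forms were, for each form, the 5 miRNAs with the highest and the 3 with the lowest Pearson r among those detected on all arrays, the 5 tested neuron-enriched miRNAs with the largest differences, and the 2 brightest tested members of each other list. The level of miR-124-3p was given outside this rule. Alternatives covered scaling, background, probe summary, floor, detection filter, variance model, slide, replicate number, the authors' value table and leaving out each tumour. The brighter probe alone was added after seeing the data.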

Additional observations from a re-analysis of the deposited data

How the results depend on the processing

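The 3 differences stayed negative under each of 14 other settings and without each tumour in turn, and the count of called miRNAs was 0 under every setting run. In the order miR-129-2-3p, miR-129-5p and miR-129-1-3p, the authors' value table gave −1.50, −0.83 and −0.65. Without scaling the differences were −1.55, −0.92 and −0.59, while the median over all tested miRNAs moved from 0.0413 to 0.218. Leaving out 1 tumour gave −2.21 to −1.22, −1.42 to −0.86 and −1.0 to −0.60. The smallest differences came without wild-type replicate 3 for miR-129-2-3p and miR-129-5p, and without deficient replicate 3 for miR-129-1-3p. With a replicate block the differences were −1.81, −1.16 and −0.75, and 63 miRNAs had an unadjusted p under 0.05 in place of 16. Deviations of same-numbered tumours correlated at −0.22 to 0.194, so the numbers were not taken as pairs. Correlations between the forms were 0.814 to 0.99 over 13 settings. Signal over background limits miR-129-5p most, with 1 tumour not detected and few spots above background in deficient replicate 1 and wild-type replicate 5.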

Other observations

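Mir670 lies within Mir670hg, the long noncoding RNA gene that Mir129-2 also overlaps, and the hairpins of Mir670 and Mir129-2 are both on the minus strand. It was looked at after the values of miR-129 were seen, outside the rule for named miRNAs. miR-670-5p was detected in 9 tumours, 5 of them wild type and 4 deficient, and miR-670-3p in none. The lowest, median and highest levels of miR-670-5p were 5.32, 6.66 and 7.89 in wild-type and 4.10, 5.53 and 7.86 in deficient tumours, a difference of −1.04 (limma adjusted p = 0.589). Across the 13 tumours it followed the forms of miR-129 loosely, with r = 0.398 for miR-129-2-3p, 0.324 for miR-129-5p and 0.289 for miR-129-1-3p, given as a description with no test.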
